A study of Homo sapiens with 6 samples.

Results

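Interferon-stimulated genes are the genes that a cell turns up when it senses foreign or displaced nucleic acid or when interferon binds its receptors. The set described here has 52 of them, taken by symbol from a table of 17758 genes: 6 RNA sensors with their cofactors, the 5 genes of the PARP9 group, 3 transcription factors, 5 genes of the ISG15 system, 6 enzymes that act on double-stranded RNA, 7 IFIT and IFITM genes and 20 other effectors. All 52 had enough reads to be tested. RNA was measured in T47D, an oestrogen receptor-positive luminal breast cancer cell line, in 3 libraries that carry a non-targeting hairpin (shNC) and 3 that carry short hairpin RNA aimed at CUEDC1 (shCUEDC1). Both groups were infected with lentivirus, and cells without a lentiviral hairpin were not analysed here. The labels do not say how many hairpins were used or whether the 3 libraries of a group came from separate infections, so a p-value measures the spread between these libraries, which may be technical. In bulk RNA, a change in the number of cells that express a gene and a change in the RNA per cell cannot be told apart.

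As background, the sensors RIG-I (gene DDX58) and MDA5 (IFIH1) are helicases that bind viral double-stranded RNA in the cytoplasm and pass the signal to the mitochondrial adaptor MAVS. Kinases downstream of MAVS then activate the factors that switch on interferon genes. Secreted type I and type III interferon act through receptor-bound JAK kinases on factors that include STAT2 and IRF9, and the complex ISGF3 then binds interferon-stimulated response elements in the promoters of the effector genes. The products of these genes edit double-stranded RNA, bind viral transcripts, block viral entry, attach the ubiquitin-like protein ISG15 to other proteins, or sense RNA themselves. PARP9 and its partner DTX3L, an E3 ubiquitin ligase, form a complex that is known to support interferon signalling.

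The core of the interferon-stimulated response element was searched in RefSeq promoter windows, each from 250 bases before to 50 bases after a start site (GRCh38.p14). The motif was GAAA, any 2 bases and GAAA again. It was searched on both strands, and overlapping matches were counted separately. Windows were found for 42 of the 52 genes, and a gene was counted if any of its windows held a match. By gene, 29 of the 42 held a match (69.05%), while 4.38% of the 27305 genes with windows did. By window, 34 of the 57 windows of the set held one (59.65%), while 3.57% of all 35116 windows did. Among the genes that rose in shCUEDC1 cells, 12 of 15 with a window held it, and among the others 17 of 27 did. All 4 genes of the PARP9 group with a window and all 5 IFIT and IFITM genes with a window held a match, as did 3 of the 5 sensors and cofactors with one, and neither of the 2 transcription factors with one. A match is a description of the letters and not a measured site. No window was matched for DHX58, PARP10, IRF7, USP18, OAS2, OASL, IFIT2, IFITM2, MX2 and TRIM22.

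The stretches that follow show the upstream sequence, 5′ to 3′ along the gene's strand in lower case with the match in capitals, of genes that differ in how they moved. DDX60 (chr4:168318753-168318872, minus strand), DDX60L (chr4:168480493-168480612, minus strand) and PARP14 (chr3:122680719-122680838, plus strand) rose, and the last 120 bases before each start hold 2, 2 and 1 matches. DTX3L (chr3:122564301-122564343, plus strand) is shown from 37 bases before its start to base 6, because its match spans its start (bases -6 to 4). The same letters lie before a start of PARP9, which points the other way. Another window of PARP9 holds no match. DDX58 (chr9:32526197-32526316, minus strand, listed by RefSeq as RIGI) rose with no match in its window, and its neighbour in function IFIH1 (chr2:162318685-162318804, minus strand) holds a match and did not pass the test. IFIT1 (chr10:89392503-89392622, plus strand) and IFITM3 (chr11:320861-320980, minus strand) did not pass the test and IFI27 (chr14:94110616-94110735, plus strand) did, and each of these 3 stretches holds 2 matches. Capitals that begin and end with TTTC are matches on the opposite strand.
DDX60: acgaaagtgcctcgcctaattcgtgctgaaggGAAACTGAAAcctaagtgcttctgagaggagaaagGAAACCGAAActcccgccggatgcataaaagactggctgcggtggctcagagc
DDX60L: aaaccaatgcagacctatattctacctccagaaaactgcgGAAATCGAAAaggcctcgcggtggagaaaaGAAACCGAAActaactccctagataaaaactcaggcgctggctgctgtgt
PARP14: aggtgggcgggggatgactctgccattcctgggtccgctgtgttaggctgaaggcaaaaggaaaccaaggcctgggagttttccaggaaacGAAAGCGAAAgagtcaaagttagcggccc
DTX3L: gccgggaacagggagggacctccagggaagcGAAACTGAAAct
DDX58: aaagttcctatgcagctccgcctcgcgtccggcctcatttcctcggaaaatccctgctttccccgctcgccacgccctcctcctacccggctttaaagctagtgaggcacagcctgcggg
IFIH1: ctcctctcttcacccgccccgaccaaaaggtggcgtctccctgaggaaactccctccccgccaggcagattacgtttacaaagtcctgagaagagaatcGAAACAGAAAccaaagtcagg
IFIT1: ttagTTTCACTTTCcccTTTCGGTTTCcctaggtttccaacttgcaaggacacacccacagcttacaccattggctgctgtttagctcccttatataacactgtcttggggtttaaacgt
IFI27: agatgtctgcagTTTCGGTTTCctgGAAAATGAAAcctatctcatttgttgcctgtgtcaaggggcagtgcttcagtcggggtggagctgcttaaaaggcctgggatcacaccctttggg
IFITM3: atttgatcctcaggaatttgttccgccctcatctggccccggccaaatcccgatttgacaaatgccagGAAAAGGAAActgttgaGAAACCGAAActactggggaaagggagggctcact

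Depth was even, with 18924327 to 19731609 estimated reads per library. CUEDC1, the target, was at 109.6, 109 and 93.3 CPM across shNC 1 to 3 and 31.4, 33.8 and 31.98 CPM across shCUEDC1 1 to 3 (CPM, read counts scaled to a common library size by TMM), and fell by 1.68 on the log2 scale (SE 0.0755, edgeR adjusted p = 9.27e-06). The library shNC 3 stood apart from its group. Over the 10142 genes at 10 CPM or more, the SD of the log2 difference was 0.109 between shNC 1 and shNC 2, 0.246 and 0.266 between each of these and shNC 3, and 0.127 to 0.131 between shCUEDC1 libraries. Over the 52 genes alone it was 0.0833 between shNC 1 and 2, 0.170 and 0.185 against shNC 3, and 0.0642 to 0.0819 between shCUEDC1 libraries. Results are therefore also given without shNC 3. The summed FPKM of 9 luminal epithelial markers was 4871 to 6225 in shNC and 6075 to 6203 in shCUEDC1, that of 9 leukocyte markers 2.35 to 3.02 and 2.23 to 2.64, that of 6 fibroblast markers 4.83 to 5.86 and 6.87 to 8.67, and that of 5 endothelial markers 0.08 to 0.10 and 0.07 to 0.15. No marker on these lists was at 0 in all 6 libraries. COL1A1, on the fibroblast list, was the only marker called, and it was higher in shCUEDC1. Its mean of 4.77 FPKM in shNC and 7.19 in shCUEDC1 made up most of the fibroblast sums. The lowest luminal sum was that of shNC 3, where KRT8 was at 1232 FPKM, against 1997 and 2022 in shNC 1 and 2. The part of these cell types in the results was not tested, and leukocyte and endothelial markers were near 0 in both groups.

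The interferon-stimulated genes were already abundant in the control cells. FPKM, the authors' read density scaled to gene length and library size, allows levels of different genes to be compared. IFI27, a small mitochondrial protein and a common interferon marker, was at 3081 ± 182 FPKM in shNC and 3672 ± 119 in shCUEDC1 (SD, n = 3), rank 2 among all 17758 genes by its mean over the 6 libraries. IFI6, a membrane protein of the same family, was at 2103 ± 181 and 2493 ± 105 FPKM (rank 14). The antiviral membrane protein IFITM1 had rank 82 and ISG15 rank 89. The set held 4 of the top 100 genes by FPKM and 19 of the top 500, and 50 of the 52 were above the median of the genes tested. The least abundant was MX2, a GTPase that blocks nuclear entry of viral genomes, with a mean of 5.41 FPKM. Together the 52 genes took 2.15%, 2.16% and 1.94% of the reads in shNC 1, 2 and 3 and 2.36%, 2.34% and 2.37% in shCUEDC1 1, 2 and 3. The shCUEDC1 libraries were alike and all above the shNC libraries, and shNC 3 was the lowest. RNA of interferon ligands was present in both groups. IFNL1, a type III interferon, was at 22.3, 19.9 and 23.4 FPKM across shNC 1 to 3 and 19.97, 19.97 and 19.9 FPKM across shCUEDC1 1 to 3. IFNB1, the first type I interferon made by most cells, was at 3.86, 2.95 and 5.89 FPKM across shNC 1 to 3 and 4.49, 4.45 and 3.96 FPKM across shCUEDC1 1 to 3. In both ligands the groups overlapped, and neither passed the test.

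**Figure D1:**
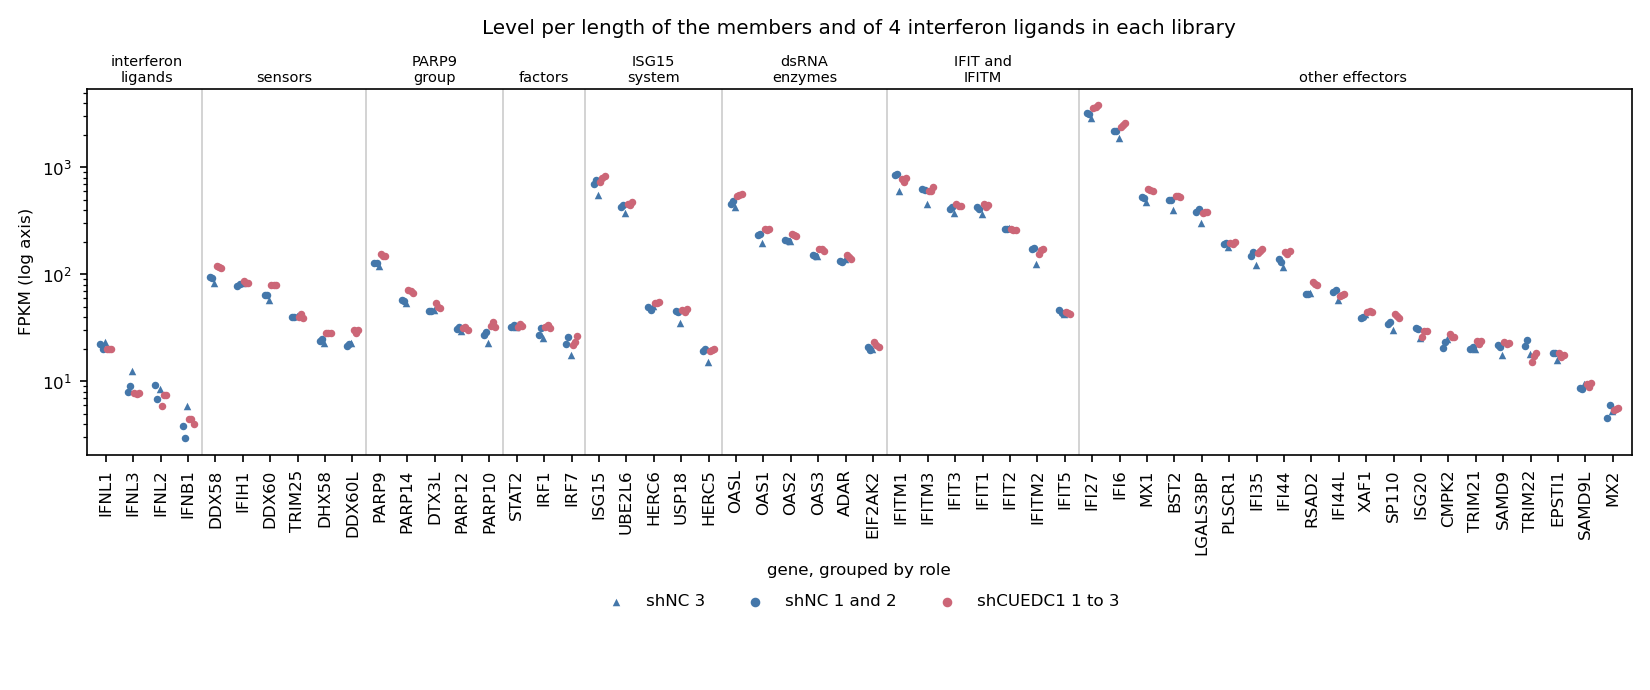
FPKM on a log axis for the 52 genes and 4 interferon ligands, grouped by role and ordered by mean level within a role; each point is 1 library, and shNC 3 is a triangle. IFI27 and IFI6 stand highest, the interferon ligands lie at the low end, and in many genes the triangle is the lowest shNC point.

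The comparison of shCUEDC1 with shNC asks how silencing CUEDC1 moved these genes. It was tested with edgeR's quasi-likelihood test over 13824 genes, and a gene is called at an adjusted p below 0.05. Of the 52 genes, 19 rose and none fell, while 5.19% of all genes tested were higher and 4.77% lower. The 52 genes and their roles were chosen with earlier results of these data known. These counts, and the contrasts between roles, are therefore a description and not a test. At an unadjusted p below 0.05, edgeR had 30 of the 52 higher and 1 lower (TRIM22), against 12.4% and 12.8% of all genes. DESeq2 called 19 higher and 0 lower, against 5.69% and 5.10% of all genes. The rises were small: the called genes ranged from 0.17 to 0.41 on the log2 scale, which is 1.13-fold to 1.33-fold. The median over the 52 was 0.17, against -0.004 over all genes tested. A positive log2 difference was seen in 48 of the 52, and in 6788 of all 13824 genes tested. Without shNC 3, 42 of the 52 were positive and 10 negative. Relative to the mean of shNC 1 and 2 in log2 CPM, the median over the 52 was 0.135. In 30 genes every shCUEDC1 library lay above every shNC library, as in 15.7% of all genes, and in none did every one lie below, as in 15.6%. The other 33 genes were not called. Called genes by role were 4 of 6 sensors and cofactors, 4 of 5 of the PARP9 group, 4 of 6 double-stranded RNA enzymes, 7 of 20 other effectors, and none of the 3 transcription factors, the 5 genes of the ISG15 system or the 7 IFIT and IFITM genes. With 5.19% of all genes called higher, no call in lists this short is near the share of all genes. Without shNC 3, 28 of the 52 were higher, where 14.3% of all genes were, and 2 were lower, where 13.8% of all genes were. The 28 include all 19.

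**Figure D2:**
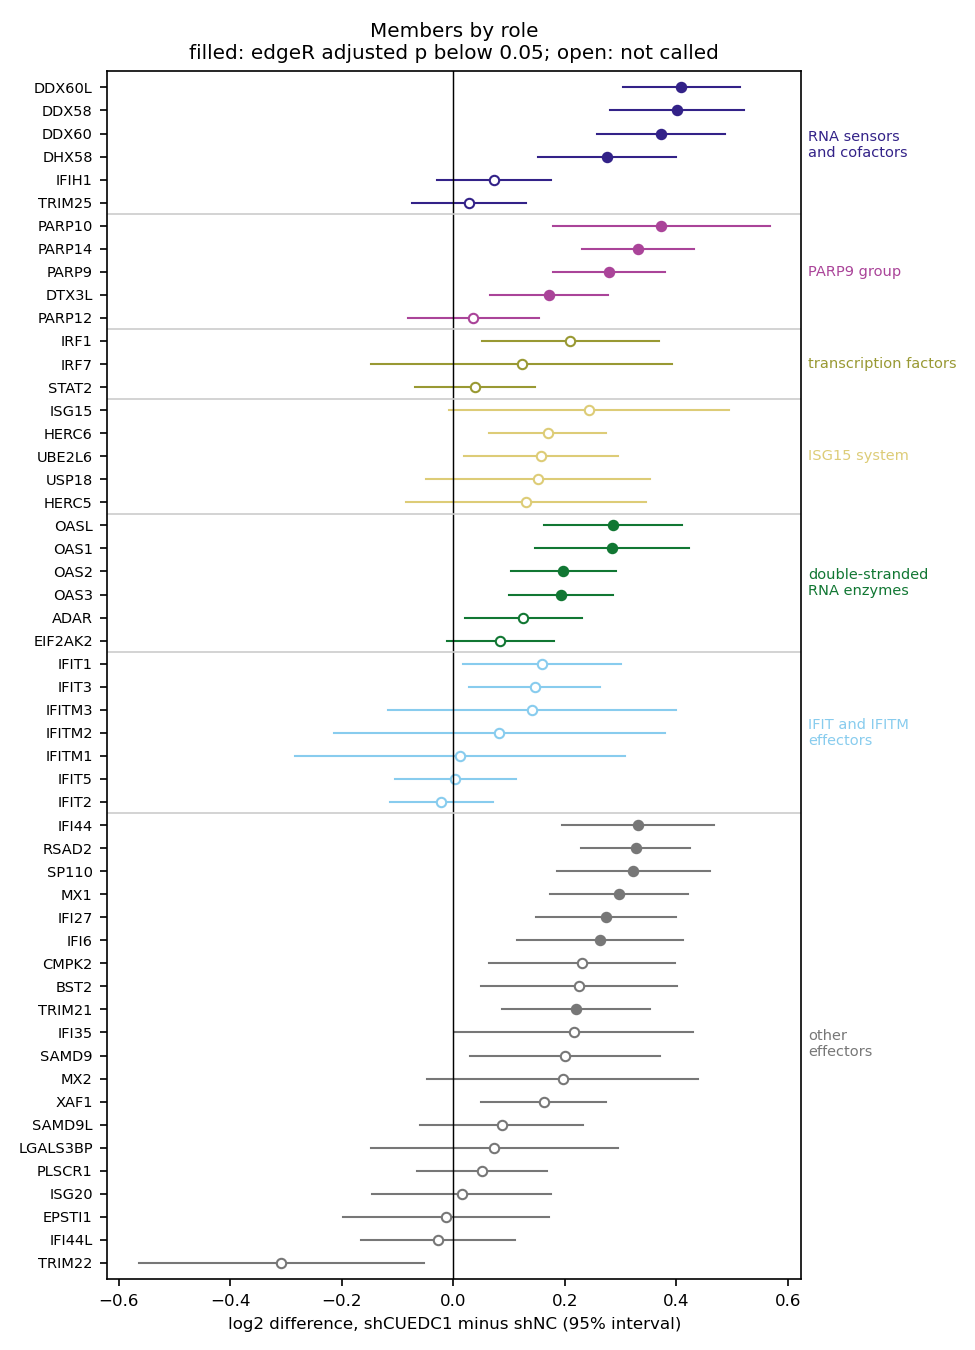
Log2 difference of each of the 52 genes (shCUEDC1 minus shNC) with its 95% interval, grouped by role; filled points have an edgeR adjusted p below 0.05. The 19 filled points are all to the right of 0 and lie among the sensors, the PARP9 group, the double-stranded RNA enzymes and other effectors, and TRIM22 is the lowest open point at -0.31.

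The RNA sensors divided into 4 helicases that rose by 0.28 to 0.41 on the log2 scale and 2 genes whose groups overlapped. DDX58 (chr9:32455705-32526324, minus strand, GRCh38), which encodes RIG-I, was at 425, 422 and 377 CPM across shNC 1 to 3 and 549.8, 534 and 533 CPM across shCUEDC1 1 to 3. Its lowest shCUEDC1 library was above its highest shNC library, and shNC 3 was the lowest of all. The log2 difference was 0.40 (SE 0.0536, edgeR adjusted p = 0.00200). IFIH1, which encodes MDA5, was at 275, 286 and 293 CPM across shNC 1 to 3 and 309, 292 and 297 CPM across shCUEDC1 1 to 3. Here the groups overlapped only through shNC 3, and the log2 difference of 0.07 (95% interval -0.03 to 0.18, edgeR adjusted p = 0.368) did not pass the test. Without shNC 3 the log2 difference of IFIH1 was 0.10 and again did not pass (edgeR adjusted p = 0.0689). The ratio of DDX58 to IFIH1 within a library does not depend on library scaling. On the log2 scale it was 0.63, 0.56 and 0.37 in shNC 1, 2 and 3 and 0.83, 0.87 and 0.85 in shCUEDC1 1, 2 and 3, without overlap. The difference of 0.33 had an exact two-sided permutation p of 0.1, the smallest that 3 against 3 libraries allow, and 0.133 after Benjamini-Hochberg adjustment over the 4 ratios computed, which were chosen after values had been seen.

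DHX58 encodes LGP2, the third helicase of the family, which lacks signalling domains and modulates the others. Its level was 59.3, 61.9 and 56.5 CPM across shNC 1 to 3 and 71.2, 71.1 and 72.8 CPM across shCUEDC1 1 to 3. Every shCUEDC1 library was above every shNC library, with a log2 difference of 0.28 (SE 0.0556, edgeR adjusted p = 0.0136). This call was lost when shNC 1 or any 1 shCUEDC1 library was left out (largest edgeR adjusted p = 0.0740, without shCUEDC1 3). DDX60, a helicase described as a cofactor of RIG-I-like sensing, was at 381, 382 and 344 CPM across shNC 1 to 3 and 481, 472 and 479.5 CPM across shCUEDC1 1 to 3, a log2 difference of 0.37 (SE 0.0511, edgeR adjusted p = 0.00219). Its neighbour and paralog DDX60L was at 99.9, 98.03 and 102 CPM across shNC 1 to 3 and 136, 130.4 and 131 CPM across shCUEDC1 1 to 3, a log2 difference of 0.41 (SE 0.0469, edgeR adjusted p = 9.26e-04), the largest of the 52. In both genes the groups were clearly apart. In DDX60L shNC 3 was the highest shNC library, while in DDX60 it was the lowest. TRIM25, the ubiquitin ligase known for acting on RIG-I, was at 227, 224 and 229 CPM across shNC 1 to 3 and 228, 241 and 224 CPM across shCUEDC1 1 to 3. Its groups overlapped, with a log2 difference of 0.03 (95% interval -0.07 to 0.13, edgeR adjusted p = 0.757). The calls of DDX58, DDX60 and DDX60L held in each of the 6 fits that left out 1 library.

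In the PARP9 group, 4 of 5 genes rose. PARP9 (chr3:122527924-122564577, minus strand, GRCh38), a mono-ADP-ribosyltransferase family member that acts with DTX3L, was at 420.2, 417 and 395 CPM across shNC 1 to 3 and 512, 491 and 494 CPM across shCUEDC1 1 to 3. The groups did not overlap, and the log2 difference was 0.28 (SE 0.0450, edgeR adjusted p = 0.00465). PARP14, a large family member with macrodomains, was at 435, 424 and 410.0 CPM across shNC 1 to 3 and 548, 531 and 517 CPM across shCUEDC1 1 to 3, a log2 difference of 0.33 (SE 0.0451, edgeR adjusted p = 0.00211). Both calls held whichever library was left out. DTX3L was at 258, 256 and 262 CPM across shNC 1 to 3 and 307, 286 and 282 CPM across shCUEDC1 1 to 3. Its groups did not overlap, but the log2 difference of 0.17 (SE 0.0475, edgeR adjusted p = 0.0499) was just inside the threshold. That call was lost without any 1 library except shNC 3 (largest edgeR adjusted p = 0.207, without shCUEDC1 1), with a filter of 1 CPM (0.0506) and with limma-trend on FPKM (0.104). PARP9 and DTX3L lie head to head, and their exons overlap on opposite strands. Whether the counting used strand is not given in the sources used here, so reads of the shared stretch cannot be assigned to either gene. The log2 ratio of PARP9 to DTX3L was 0.70, 0.70 and 0.59 in shNC 1, 2 and 3 and 0.74, 0.78 and 0.81 in shCUEDC1 1, 2 and 3, a difference of 0.11 (exact permutation p = 0.1, adjusted 0.133).

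PARP10, a mono-ADP-ribosyltransferase, was at 92.7, 100.2 and 77.5 CPM across shNC 1 to 3 and 114, 123 and 113 CPM across shCUEDC1 1 to 3, with a log2 difference of 0.37 (SE 0.0868, edgeR adjusted p = 0.0261). It had the largest SE of the 4 called genes of this group, with shNC 3 lowest and -0.31 log2 CPM from the mean of shNC 1 and 2. Its call was lost when shNC 1 or any 1 shCUEDC1 library was left out (largest edgeR adjusted p = 0.126, without shCUEDC1 2) and with limma-trend on FPKM (0.0509), and its exons overlap GRINA and SPATC1 on the opposite strand. PARP12, a zinc-finger member of the family, was at 92.04, 95.01 and 87.4 CPM across shNC 1 to 3 and 93.7, 96.1 and 91.6 CPM across shCUEDC1 1 to 3. The groups overlapped, with a log2 difference of 0.04 (95% interval -0.08 to 0.15, edgeR adjusted p = 0.730).

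**Figure D3:**
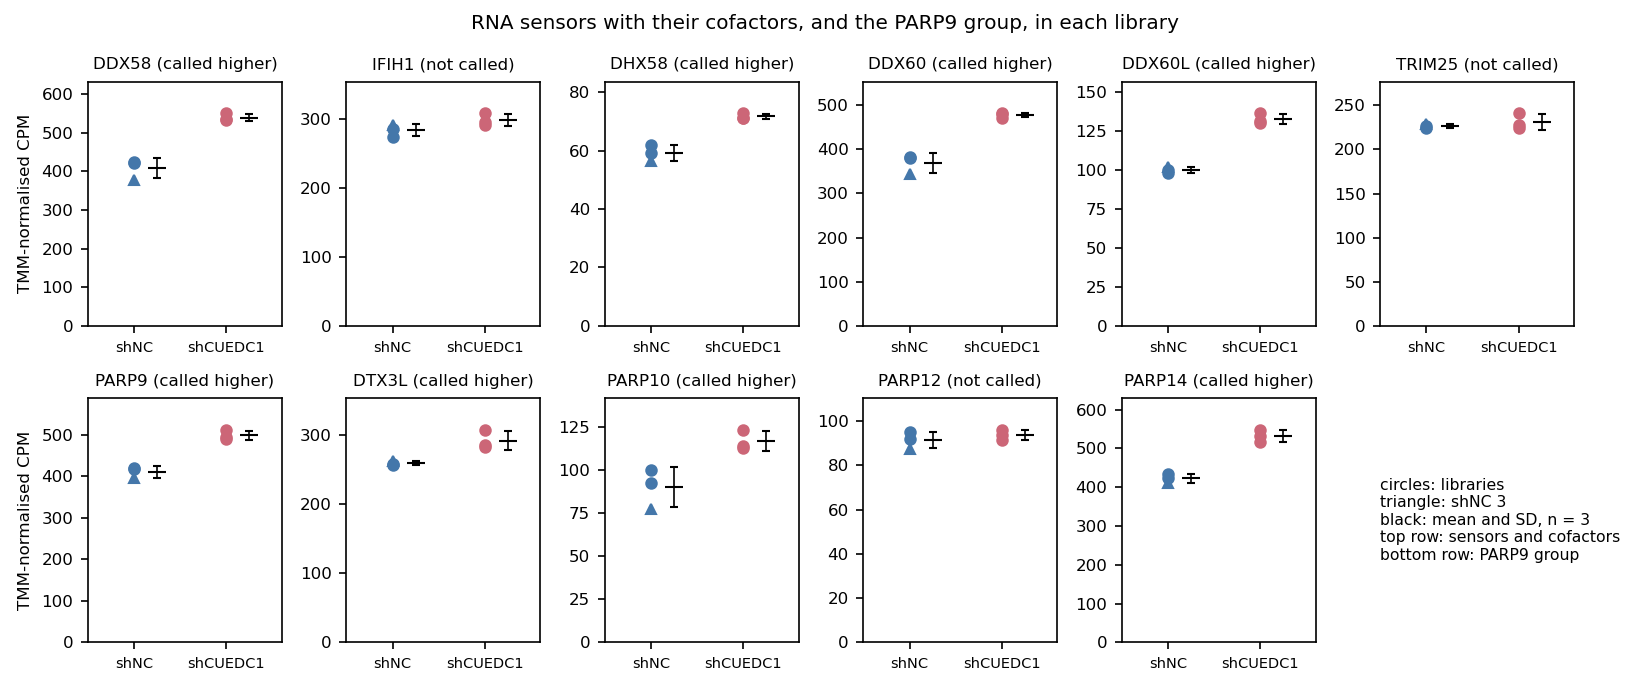
TMM-normalised CPM in each library for the 6 sensors and cofactors (top row) and the 5 genes of the PARP9 group (bottom row), with axes from 0, black marks for mean and SD (n = 3) and a triangle for shNC 3. The 8 called genes have groups that do not overlap, and IFIH1, TRIM25 and PARP12 have groups that do.

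None of the 3 transcription factors passed the test with edgeR or DESeq2, and 1 of them (IRF1) had an unadjusted p below 0.05. Of all genes tested, edgeR called 5.19% higher, and no call among 3 genes is near that share. STAT2, the interferon-specific subunit of ISGF3, was at 133, 135 and 129 CPM across shNC 1 to 3 and 133, 141 and 134 CPM across shCUEDC1 1 to 3, a log2 difference of 0.04 (95% interval -0.07 to 0.15, edgeR adjusted p = 0.677). IRF1, a factor induced by several cytokines, was at 63.03, 72.03 and 60.6 CPM across shNC 1 to 3 and 74.95, 78.2 and 73.2 CPM across shCUEDC1 1 to 3. Its groups did not overlap, but the log2 difference of 0.21 had an edgeR adjusted p of 0.0955, which became 0.0241 without shNC 3 and 0.0272 without shNC 2. IRF7, the factor that amplifies interferon-alpha genes, was at 37.5, 40.4 and 27.96 CPM across shNC 1 to 3 and 36.8, 38.5 and 40.01 CPM across shCUEDC1 1 to 3. Its groups overlapped only through shNC 1 and 2, and the log2 difference of 0.12 (edgeR adjusted p = 0.583) became -0.02 without shNC 3.

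Outside the set, IRF9, the DNA-binding partner of STAT2, was tested in the same fit. IRF9 was at 71.3, 68.2 and 65.3 CPM across shNC 1 to 3 and 80.2, 80.3 and 80.2 CPM across shCUEDC1 1 to 3, with a log2 difference of 0.23 (SE 0.0533, edgeR adjusted p = 0.0237). It was higher in every shCUEDC1 library than in any shNC library. The call was lost without shNC 2 or any 1 shCUEDC1 library (largest edgeR adjusted p = 0.108, without shCUEDC1 2). Whether IRF9 moved differently from STAT2 was not tested.

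The ISG15 system, in which UBE2L6 and HERC5 attach ISG15 to proteins and USP18 removes it, had no gene called by edgeR, where 2 were higher at an unadjusted p below 0.05, and 1 called by DESeq2. Over all genes the shares higher were 5.19%, 12.4% and 5.69%. No edgeR call in so short a list is near the share of all genes. ISG15 itself was at 412, 444 and 324 CPM across shNC 1 to 3 and 435, 466 and 496 CPM across shCUEDC1 1 to 3. Its groups overlapped because shNC 2 was above shCUEDC1 1, and shNC 3 was far below both other controls. The log2 difference was 0.24 (SE 0.109, edgeR adjusted p = 0.211), and 0.12 without shNC 3 (edgeR adjusted p = 0.0741). UBE2L6, the conjugating enzyme, was at 499, 513 and 439 CPM across shNC 1 to 3 and 531, 525 and 561 CPM across shCUEDC1 1 to 3, a log2 difference of 0.16 (edgeR adjusted p = 0.148), with groups that did not overlap, and of 0.10 without shNC 3. HERC6, a relative of the ligase HERC5, was at 176, 165 and 178 CPM across shNC 1 to 3 and 195, 192 and 196 CPM across shCUEDC1 1 to 3. Its groups did not overlap, and its log2 difference of 0.17 (SE 0.0472, edgeR adjusted p = 0.0511) lay just outside the threshold and passed it with DESeq2 (0.0438) and without shNC 3 (edgeR adjusted p = 6.05e-04). USP18 and HERC5 had log2 differences of 0.15 and 0.13, and in both genes shNC 3 was the lowest library. Without it the values were 0.05 and 0.02.

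Of the 6 enzymes that act on double-stranded RNA, the 4 genes of the OAS family rose. These synthetases make oligoadenylate from ATP on binding double-stranded RNA, which activates RNase L, except OASL, which lacks that activity. OAS1 was at 429, 445 and 375 CPM across shNC 1 to 3 and 508, 503 and 510.3 CPM across shCUEDC1 1 to 3, and its log2 difference was 0.28 (SE 0.0618, edgeR adjusted p = 0.0186). OASL was at 905, 962 and 846 CPM across shNC 1 to 3 and 1073, 1097 and 1139 CPM across shCUEDC1 1 to 3, with a log2 difference of 0.29 (SE 0.0550, edgeR adjusted p = 0.0109). In both genes all shCUEDC1 libraries were above all shNC libraries, and shNC 3 was the lowest. OAS2 was at 897, 880.5 and 872 CPM across shNC 1 to 3 and 1038, 1004 and 996 CPM across shCUEDC1 1 to 3, a log2 difference of 0.20 (SE 0.0420, edgeR adjusted p = 0.0173). OAS3 was at 981, 966 and 959.7 CPM across shNC 1 to 3 and 1125, 1118 and 1081 CPM across shCUEDC1 1 to 3, a log2 difference of 0.19 (SE 0.0418, edgeR adjusted p = 0.0181). In these 2 genes the shNC libraries were close together, and again no library of one group reached the other. Each of the 4 calls was lost in some fit that left out 1 library: the largest edgeR adjusted p was 0.0867 for OAS1 and 0.0644 for OASL, both without shCUEDC1 3, 0.0976 for OAS2 without shCUEDC1 1 and 0.106 for OAS3 without shCUEDC1 2. OAS1 also lost it with limma-trend on FPKM (0.0698).

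The other 2 enzymes were not called, although their groups did not overlap. EIF2AK2, which encodes the translation-blocking kinase PKR, was at 201, 193 and 197 CPM across shNC 1 to 3 and 209, 210.3 and 207 CPM across shCUEDC1 1 to 3, a log2 difference of 0.08 (95% interval -0.01 to 0.18, edgeR adjusted p = 0.257). ADAR, which edits adenosine to inosine in double-stranded RNA, was at 841, 825 and 875 CPM across shNC 1 to 3 and 963, 914 and 896 CPM across shCUEDC1 1 to 3, a log2 difference of 0.13 (edgeR adjusted p = 0.130). Without shNC 3 ADAR passed the test (log2 difference 0.15, edgeR adjusted p = 0.00300).

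Most of the IFIT and IFITM genes were above the median level of the set, and none was called by edgeR or DESeq2, with 2 higher at an unadjusted p below 0.05 in edgeR. Over all genes, edgeR called 5.19% higher, DESeq2 5.69%, and 12.4% were higher at that unadjusted p. No call in so short a list is near the share of all genes. IFIT proteins bind viral RNA that lacks host marks at its end, and IFITM proteins block fusion of viral and cell membranes. IFIT3 was at 957, 993 and 881 CPM across shNC 1 to 3 and 1064, 1028 and 1039.5 CPM across shCUEDC1 1 to 3. The groups did not overlap, and the log2 difference was 0.15 (edgeR adjusted p = 0.113). IFITM1 was at 518, 538 and 373 CPM across shNC 1 to 3 and 484, 456 and 502 CPM across shCUEDC1 1 to 3, and IFITM3 was at 349, 345 and 256 CPM across shNC 1 to 3 and 338, 339 and 371 CPM across shCUEDC1 1 to 3. In both, shNC 3 was the lowest of the 6 libraries, and the shCUEDC1 libraries of IFITM1 were all below shNC 1 and 2. The log2 difference was 0.01 for IFITM1 (95% interval -0.28 to 0.31, edgeR adjusted p = 0.966) and 0.14 for IFITM3 (95% interval -0.12 to 0.40, edgeR adjusted p = 0.488), and that of IFITM3 was 0.01 without shNC 3. Without shNC 3, IFITM1 was lower in shCUEDC1, with a log2 difference of -0.13 (edgeR adjusted p = 0.0141). The other 4 genes had log2 differences between -0.02 (IFIT2) and 0.16 (IFIT1). IFIT1 was at 1811, 1747 and 1535 CPM across shNC 1 to 3 and 1939, 1828 and 1920.3 CPM across shCUEDC1 1 to 3, without overlap, and did not pass the test (edgeR adjusted p = 0.151), and its log2 difference was 0.10 without shNC 3. IFITM1, IFITM2 and IFITM3 are similar in sequence and adjacent, and how reads were shared among them is not given in the sources used here.

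Of the 20 other effectors, 7 rose. RSAD2, which encodes viperin, an enzyme that makes a chain-terminating nucleotide, was at 220.2, 218 and 221 CPM across shNC 1 to 3 and 285, 273 and 269 CPM across shCUEDC1 1 to 3. The shNC libraries were within a few CPM of each other, shNC 3 included, and the shCUEDC1 libraries were all higher. The log2 difference was 0.33 (SE 0.0434, edgeR adjusted p = 0.00198), and the call held in each of the 6 fits that left out 1 library. MX1, a dynamin-like GTPase that traps viral ribonucleoproteins, was at 1425, 1394 and 1255 CPM across shNC 1 to 3 and 1716, 1656 and 1633 CPM across shCUEDC1 1 to 3, a log2 difference of 0.30 (SE 0.0555, edgeR adjusted p = 0.00972). IFI44, a cytoplasmic interferon-induced protein, was at 228, 215 and 196 CPM across shNC 1 to 3 and 267, 258 and 278 CPM across shCUEDC1 1 to 3, a log2 difference of 0.33 (SE 0.0610, edgeR adjusted p = 0.00900). SP110, a nuclear body protein, was at 76.7, 79.99 and 70.5 CPM across shNC 1 to 3 and 98.1, 95.4 and 90.7 CPM across shCUEDC1 1 to 3, a log2 difference of 0.32 (SE 0.0615, edgeR adjusted p = 0.0107). In these 3 genes shNC 3 was the lowest library and the groups did not overlap. Each lost its call without 1 or another shCUEDC1 library (largest edgeR adjusted p 0.0634 for MX1 without shCUEDC1 1, 0.0615 for IFI44 without shCUEDC1 3 and 0.0675 for SP110 without shCUEDC1 1).

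The 2 most abundant genes of the set also rose. IFI27 was at 1842, 1779 and 1627 CPM across shNC 1 to 3 and 2054, 2092 and 2199.9 CPM across shCUEDC1 1 to 3, a log2 difference of 0.27 (SE 0.0559, edgeR adjusted p = 0.0143). IFI6 was at 1683, 1682 and 1440.4 CPM across shNC 1 to 3 and 1841, 1912 and 2014 CPM across shCUEDC1 1 to 3, a log2 difference of 0.26 (SE 0.0667, edgeR adjusted p = 0.0351). Both had shNC 3 lowest and shCUEDC1 3 highest, without overlap of the groups. Leaving out any 1 shCUEDC1 library ended both calls (largest edgeR adjusted p 0.0744 and 0.146, without shCUEDC1 3), and IFI6 also lost it without shNC 1 and with limma-trend on FPKM (0.0648). TRIM21, a cytoplasmic antibody receptor and ubiquitin ligase, was at 37.9, 38.96 and 37.6 CPM across shNC 1 to 3 and 45.3, 42.7 and 45.3 CPM across shCUEDC1 1 to 3, a log2 difference of 0.22 (SE 0.0593, edgeR adjusted p = 0.0453). It was the least abundant called gene by CPM, and its call was lost in 5 of the 6 fits that left out 1 library (largest 0.172, without shCUEDC1 1), with DESeq2 (0.0724) and with limma-trend on FPKM (0.0505).

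Among the 13 other effectors that were not called, 3 had the highest levels. BST2, or tetherin, which holds budding virus at the cell surface, was at 469.9, 467 and 377 CPM across shNC 1 to 3 and 512, 518 and 506 CPM across shCUEDC1 1 to 3, a log2 difference of 0.23 (edgeR adjusted p = 0.106) with no overlap. Without shNC 3 it passed the test (log2 difference 0.13, edgeR adjusted p = 0.00747). LGALS3BP, a secreted galectin-binding glycoprotein, was at 822, 868 and 643 CPM across shNC 1 to 3 and 806, 825 and 826 CPM across shCUEDC1 1 to 3, with shNC 3 far below the other 5 libraries and a log2 difference of 0.07 (edgeR adjusted p = 0.698). PLSCR1, a phospholipid scramblase, was at 306, 313 and 282 CPM across shNC 1 to 3 and 309, 304 and 321 CPM across shCUEDC1 1 to 3, a log2 difference of 0.05 (edgeR adjusted p = 0.596) with overlap. The remaining 10 ranged from -0.31 (TRIM22) to 0.23 (CMPK2). TRIM22, a restriction factor of the tripartite-motif family, is named because it had the most negative value. It was at 60.5, 69.2 and 50.6 CPM across shNC 1 to 3 and 43.7, 49.05 and 52.9 CPM across shCUEDC1 1 to 3. Its shCUEDC1 libraries were below shNC 1 and 2, while shNC 3 lay among them, and the log2 difference of -0.31 (95% interval -0.56 to -0.05) had an edgeR adjusted p of 0.126. Without shNC 3 TRIM22 was lower, with a log2 difference of -0.41 (edgeR adjusted p = 7.18e-04), but without shNC 2 it was at -0.20 (0.285).

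Pairs of genes that lie side by side were also set against each other. IFI44L, the neighbour and relative of IFI44, was at 210.1, 215 and 184 CPM across shNC 1 to 3 and 195, 198 and 205 CPM across shCUEDC1 1 to 3, with a log2 difference of -0.03 (edgeR adjusted p = 0.833). Within libraries the log2 ratio of IFI44 to IFI44L was 0.12, 0.00 and 0.09 in shNC 1, 2 and 3 and 0.46, 0.38 and 0.44 in shCUEDC1 1, 2 and 3, a difference of 0.36 without overlap (exact permutation p = 0.1, adjusted 0.133). CMPK2, a mitochondrial nucleotide kinase encoded beside RSAD2, was at 61.6, 70.7 and 74.8 CPM across shNC 1 to 3 and 84.7, 78.8 and 79.6 CPM across shCUEDC1 1 to 3, a log2 difference of 0.23 (edgeR adjusted p = 0.0819). The log2 ratio of RSAD2 to CMPK2 had a mean of 1.68 in shNC and 1.77 in shCUEDC1 and overlapped (exact permutation p = 0.4). RSAD2 and CMPK2 have exons that overlap on opposite strands. IFI44L, CMPK2, TRIM22, IFIT1, IFIT2, USP18 and HERC5 were named after their values had been seen.

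Set beside each other, the median log2 difference was 0.32 for the sensors and cofactors, 0.28 for the PARP9 group and 0.16 for the 33 effectors, which join the double-stranded RNA enzymes (0.20), the IFIT and IFITM genes (0.08) and the other effectors (0.21). It was 0.12 for the transcription factors and 0.16 for the ISG15 system. These medians describe the lists, and the differences between lists were not tested. Relative to the mean of shNC 1 and 2, the median of the sensors was 0.28, 0.27 and 0.30 in shCUEDC1 1, 2 and 3 and -0.04 in shNC 3. For the PARP9 group these values were 0.26, 0.23 and 0.23, and -0.08 in shNC 3. For the effectors they were 0.13, 0.10 and 0.12, and -0.15 in shNC 3. The 3 shCUEDC1 libraries were thus alike in each list, and the median of shNC 3 was below those of the other controls in each of them. Gene by gene, shNC 3 was below the mean of shNC 1 and 2 in 3 of the 6 sensors and cofactors. The same held in 4 of 5 genes of the PARP9 group and 26 of the 33 effectors. In the ISG15 system shNC 3 was lowest, at -0.35, while the shCUEDC1 libraries were at 0.05, 0.05 and 0.15. In the IFIT and IFITM genes it was at -0.21, while the shCUEDC1 libraries were at 0.01, -0.03 and 0.01. For the transcription factors shNC 3 was at -0.15, while the shCUEDC1 libraries were at -0.01, 0.07 and 0.04.

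**Figure D4:**
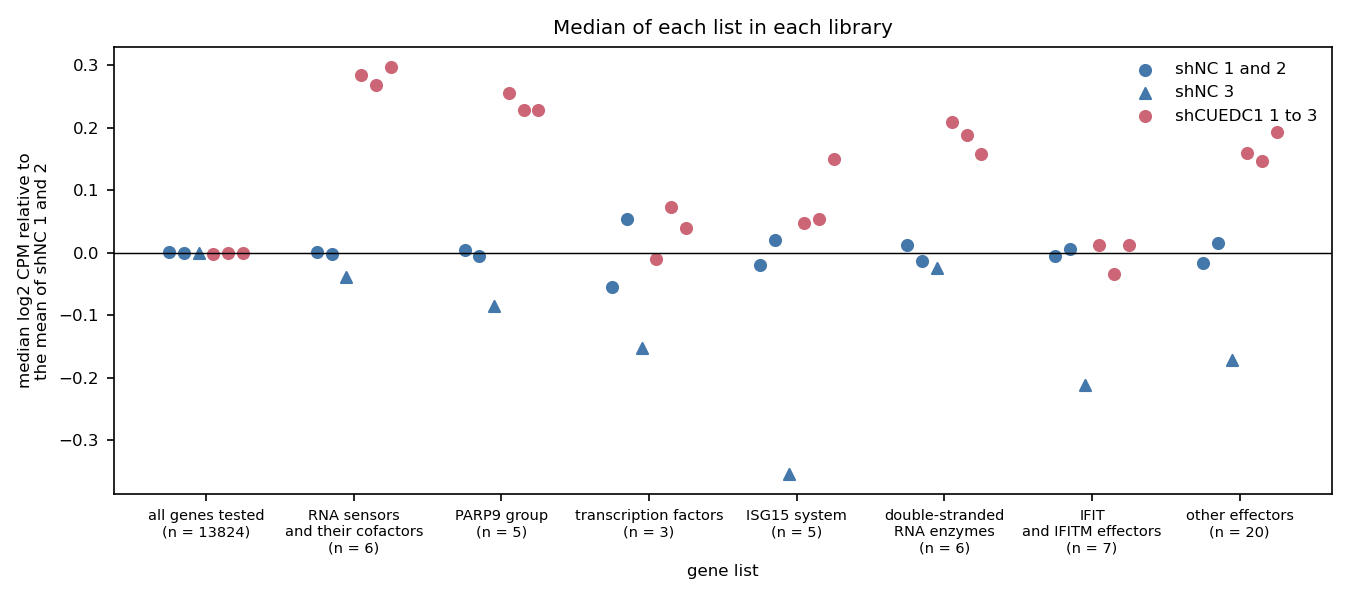
Median log2 CPM of each list in each library, relative to the mean of shNC 1 and 2, with the number of genes under each list and all genes tested at the left. The shCUEDC1 points of the sensors and of the PARP9 group lie between 0.23 and 0.30, those of the IFIT and IFITM genes lie near 0, and shNC 3 (triangle) is below 0 in every list of the set.

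The distance of shNC 3 from the other controls went with transcript length and with GC content. Over the 52 genes shNC 3 was below the mean of shNC 1 and 2 in 40, with a median of -0.15. The Spearman correlation of this deviation with transcript length was 0.608 over the 52 genes and 0.231 over 13734 genes with a length, and with GC content it was -0.433 and -0.389. Over all genes with a length, the correlation with GC content was thus the larger in size. These correlations are across genes of the same 3 libraries and describe them. The 8 genes with transcripts under 1300 bases, a bound chosen after the values were seen, had a median of -0.38, and the 44 longer ones -0.12. The GC content of these 8 was 52.5% (IFITM1) to 63.4% (ISG15), and the parts of length and GC content were not tested separately. The short ones were IFITM1 (-0.50), IFITM2 (-0.50), IFITM3 (-0.44), ISG15 (-0.40), IFI35 (-0.36), BST2 (-0.32), IFI6 (-0.22) and IFI27 (-0.15), the shortest. The longer ones reached from -0.48 (IRF7) to 0.18 (CMPK2). Across the 52 genes, the correlation of length with the log2 difference between groups was 0.018. With offsets for GC content and transcript length in each library, an alternative added after seeing the data, 28 of the 52 genes were higher and none lower, where 8.56% of all genes were higher. All 19 called genes were among the 28, and so were ISG15 (log2 difference 0.25, edgeR adjusted p = 0.0107), UBE2L6 (0.16, 0.0237) and ADAR (0.16, 0.0182). The part of RNA quality in shNC 3 was not tested.

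**Figure D5:**
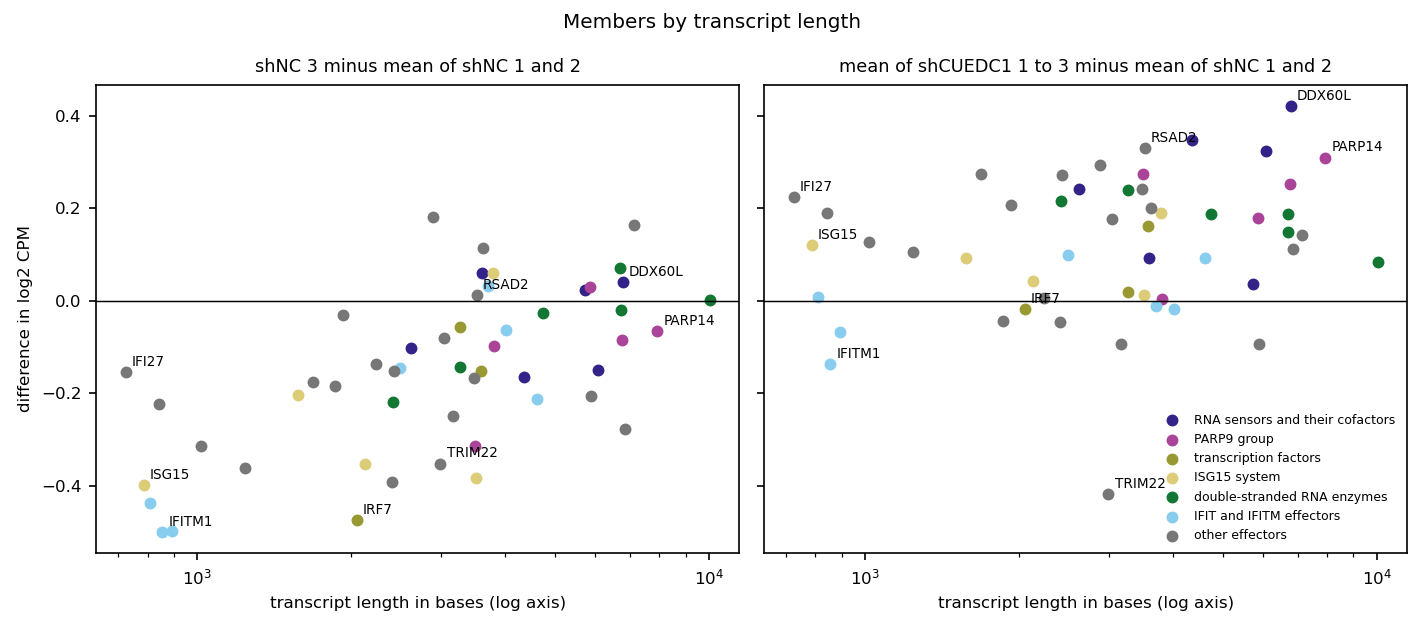
Difference in log2 CPM against transcript length (log axis) for the 52 genes, coloured by role; left, shNC 3 minus the mean of shNC 1 and 2; right, the mean of the shCUEDC1 libraries minus the same mean. On the left IFITM1 lies lowest, with ISG15 and the longer IRF7 also low and the shortest, IFI27, higher. On the right TRIM22 lies lowest, and IFITM1, IFI44L, EPSTI1, IFITM2, LGALS3BP, ISG20, IRF7, IFIT5 and IFIT2 also lie below 0. The other genes, long and short, lie above it.

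Of the 19 calls, 6 (DDX58, DDX60, DDX60L, PARP9, PARP14 and RSAD2) held in each of the 6 fits that left out 1 library and in each of 7 other fits. The other 13 were lost in at least 1 of the fits that left out a library. The number of the 52 genes called higher was 11 without shNC 1, where 2.71% of all genes were higher, and 16 without shNC 2, where 3.96% were. It was 7 without shCUEDC1 1, 7 without shCUEDC1 2 and 9 without shCUEDC1 3, where 2.08%, 1.94% and 2.16% of all genes were higher. Of the 52 genes, 13 have exons that overlap another gene on the opposite strand, among them the called PARP9, DTX3L, PARP10, OAS1, RSAD2, MX1 and SP110. Without knowledge of strand, reads of the shared stretches cannot be assigned to either gene. The lengths of these stretches were not measured, and reads outside them are not affected.

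The genes that act before the set were read in the same fit: interferons, receptors, signalling kinases and factors, adaptors of sensing, and inhibitors. The table lists 48 of these genes, and 46 were tested. Of the 46, 4 rose and 3 fell, where 9.96% of all genes tested changed in either direction, and their median log2 difference was -0.03. None of the 4 ligands tested was called by edgeR or DESeq2, and none had an unadjusted p below 0.05. IFNL2 and IFNL3, whose near-identical copies make the split of reads uncertain, had log2 differences of -0.23 and -0.35. The groups of IFNL2 overlapped. IFNL3 was at 7.24, 8.11 and 11.1 CPM across shNC 1 to 3 and 6.88, 6.65 and 7.15 CPM across shCUEDC1 1 to 3. Every shCUEDC1 library of IFNL3 was thus below every shNC library, as in 15.6% of all genes (edgeR adjusted p = 0.205). Among the 6 receptors, IFNGR1, a chain of the interferon-gamma receptor, was at 114, 111 and 137 CPM across shNC 1 to 3 and 92.4, 95.8 and 91.5 CPM across shCUEDC1 1 to 3. Every shCUEDC1 library was below every shNC library, and IFNGR1 fell by 0.37 on the log2 scale (SE 0.0784, edgeR adjusted p = 0.0168). IFNAR1, a chain of the type I receptor, was at 119, 117 and 127 CPM across shNC 1 to 3 and 114, 116 and 112 CPM across shCUEDC1 1 to 3, without overlap, and its log2 difference of -0.08 (edgeR adjusted p = 0.348) did not pass the test.

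Among kinases and factors, STAT3 was at 435, 428 and 413 CPM across shNC 1 to 3 and 378, 387 and 352 CPM across shCUEDC1 1 to 3 and fell by 0.19 on the log2 scale (SE 0.0494, edgeR adjusted p = 0.0372). JAK1, the kinase shared by interferon receptors, was at 195, 196 and 129 CPM across shNC 1 to 3 and 203, 202 and 194 CPM across shCUEDC1 1 to 3. Its shNC 3 library was far below all others, and the log2 difference of 0.20 (edgeR adjusted p = 0.457), which did not pass the test, was 0.03 without shNC 3. MAVS, the adaptor of RIG-I and MDA5, was at 97.05, 99.4 and 102 CPM across shNC 1 to 3 and 88.6, 85.7 and 84.6 CPM across shCUEDC1 1 to 3 and fell by 0.21 on the log2 scale (SE 0.0494, edgeR adjusted p = 0.0284). TLR3, the endosomal receptor of double-stranded RNA, was at 20.6, 20.8 and 17.4 CPM across shNC 1 to 3 and 25.1, 25.3 and 27.2 CPM across shCUEDC1 1 to 3, with a log2 difference of 0.40 (SE 0.0880, edgeR adjusted p = 0.0201). ZC3HAV1, the zinc-finger antiviral protein that binds CpG-rich RNA, was at 203, 198 and 209 CPM across shNC 1 to 3 and 238, 231 and 233 CPM across shCUEDC1 1 to 3, with a log2 difference of 0.20 (SE 0.0447, edgeR adjusted p = 0.0196). In each of these 3 genes the groups did not overlap. No inhibitor of the 10 tested was called by edgeR or DESeq2, and 1 (NLRC5) was higher at an unadjusted p below 0.05. Over all genes, edgeR called 9.96% in either direction, and 12.4% were higher at that unadjusted p. The inhibitors are near these shares. Each of the 7 calls in these lists was lost without at least 1 library, with largest edgeR adjusted p of 0.0938 for IFNGR1, 0.146 for STAT3 and 0.103 for TLR3, each without shCUEDC1 3, 0.140 for MAVS without shCUEDC1 2 and 0.104 for ZC3HAV1 without shCUEDC1 1. With limma-trend on FPKM the calls of MAVS (0.0696) and TLR3 (0.0506) were lost too.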

How the data were processed

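Poly(A)-selected RNA of 6 T47D libraries, 3 per group, was sequenced, per the labels' protocols. The submitters' processing notes name GRCh38 (p13) as the build. Which aligner and counter were used, and whether counting was stranded, is not given in the sources used here. A single table of 17758 genes was deposited by the authors, with estimated counts (read counts, not normalised, partly fractional) and FPKM (scaled by the authors for length and depth), per the file headers. The 20 other value columns were not used. Counts were rounded, filtered with filterByExpr (minimum count 10), scaled by TMM and compared with edgeR 4.0.16 (quasi-likelihood test, Benjamini-Hochberg over 13824 genes, threshold 0.05) in R 4.3.3. Log2 differences are shCUEDC1 minus shNC with SE or 95% interval. Within-library ratios were compared by exact two-sided permutation, chosen after values were seen. Gene positions, transcript lengths and GC content came from GENCODE v29 on GRCh38, and promoter windows from RefSeq on GRCh38.p14.

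The 52 genes, their roles and the other lists were chosen with earlier results of these data known. The genes given in full are CUEDC1, all sensors and genes of the PARP9 group, the 3 transcription factors, every other called gene, the 3 most abundant uncalled genes of each role, and, of the signalling genes, those called plus JAK1, IFNAR1 and MAVS. A gene that this rule takes is not reported here. Libraries held 18924327 to 19731609 estimated reads, and the printed SE and intervals give the precision.

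Alternatives were RLE size factors, no filter, a filter of 1 CPM in 3 libraries, DESeq2 1.42.0, limma-trend (limma 3.58.1) on log2(FPKM + 0.5), each library left out, a replicate block, and, added after seeing the data, offsets for GC content and length (values for 99.3% of tested genes). edgeR was tested on simulated counts with larger changes than those of the called genes of the set and with no outlying library. That test does not cover changes as small as these or a library like shNC 3.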

Additional observations from a re-analysis of the deposited data

How the results depend on the processing

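The median of the 52 genes stayed positive under every alternative run. Of these, 19 were higher with RLE size factors (5.26% of all genes were), 20 without a filter (4.35%), 18 with a 1 CPM filter (5.51%), 19 with DESeq2 (5.69%), 14 with limma-trend on log2(FPKM + 0.5) (3.95%) and 28 with GC and length offsets (8.56%, or 1183 genes in place of 717). The median of the sensors was 0.30 with limma-trend. Leaving out each library in turn gave 272 to 1996 genes higher and 196 to 1929 lower over the table, 7 to 28 of the 52 higher and 0 to 2 lower, and sensor medians of 0.29 to 0.35. The 4 highest counts came without shNC 3. Uncalled genes near 0 changed sign: TRIM25 went from -0.00126 (without shCUEDC1 2) to 0.0498, IRF7 from -0.0153 to 0.232, LGALS3BP from -0.0425 to 0.160 and IFITM1 from -0.133 to 0.109, the last 3 lowest without shNC 3, and IFITM1 was at -0.0185 without shCUEDC1 3. The cause was not tested.

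The replicate numbers share only a number: deviations of same-numbered libraries correlated at 0.00380, 0.0654 and 0.0262, and no label ties them. With the replicate block 16 of the 52 genes were higher, all among the 19 (DTX3L, TRIM21 and IFI6 were not called), and 603 genes (4.36%) were higher and 514 lower in all. MAVS also lost its call with the block (edgeR adjusted p = 0.0635). With 3 libraries a group and a separate shNC 3, small differences such as those of IFITM1 and TRIM22 depend on which control libraries enter.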
